A study of Mus musculus with 6 samples.

Results

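The 10 genes described here carry long-chain fatty acids from the cytosol to the sites of oxidation. They are Slc22a5 and Bbox1, which supply carnitine, Acsl1, Acsl4 and Acsl5, which activate fatty acids, Cpt1a, Slc25a20 and Cpt2, the mitochondrial shuttle, and Crot and Crat, which act on shorter acyl chains. They were chosen by symbol, and all 10 were among the 16123 genes of the deposited table. The measurements are RNA-seq of mouse liver, with 3 libraries of an exercise group and 3 of a sedentary group, all healthy adult mice. Per the labels, each exercise mouse covered 22 km on a treadmill, with training over 6 weeks and the liver taken 24 h after the last session. The sedentary mice had no treadmill training, and the tissue of both groups was perfused with buffered saline. The sources used here give no strain, sex, exact age, feeding state or hour of sampling. Hepatocyte markers were abundant in every library (12 of 12 listed, summed FPKM 93733 to 95064 in sedentary and 96783 to 98032 in exercise libraries).

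A fatty acid cannot enter beta-oxidation or glycerolipid synthesis until an acyl-CoA synthetase joins it to coenzyme A. Long-chain acyl-CoA does not cross the inner mitochondrial membrane. Cpt1a, on the outer membrane, therefore moves the acyl group to carnitine, the carrier encoded by Slc25a20 exchanges acylcarnitine for free carnitine, and Cpt2 on the inner side returns the acyl group to coenzyme A. In liver Cpt1a is held back by malonyl-CoA, the first product of fatty acid synthesis, and several genes of this route are known targets of the fatty acid receptor PPAR-alpha.

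Of the 10 genes, 7 rose in exercise, 2 fell and 1 did not pass the test (edgeR quasi-likelihood test, Benjamini-Hochberg adjusted p below 0.05 over 10266 tested genes). The risers were Crat (1.49-fold), Slc22a5 (1.29-fold), Slc25a20 (1.22-fold), Acsl1 (1.15-fold), Crot (1.12-fold), Cpt2 (1.06-fold) and Acsl5 (1.05-fold). Acsl4 fell 1.30-fold and Cpt1a fell 1.11-fold, while Bbox1 had a log2 fold change of 0.03. Among all tested genes 19.1% passed as higher and 19.0% as lower, so 2 of 10 lower is close to the background and 7 of 10 higher is above it. Either way, 9 of 10 passed, against 38.1% of tested genes. These shares are not matched for level, and a small change passes more easily in a gene with many reads. The 10 genes had a mean FPKM above that of 53.1% (Slc22a5) to 97.3% (Crot) of tested genes. The median log2 fold change was 0.12 over the 10 genes and 0.00 over all tested genes. By FPKM (fragments per kilobase, adjusted for sequencing depth) the groups did not overlap for any of the 10, with 8 higher and 2 lower in exercise. The same held for 36.6% (higher) and 14.3% (lower) of all tested genes. In whole tissue, a change in the number of cells of a type and a change in RNA per cell cannot be told apart.

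The libraries held 17941303 to 18371949 counts, and the 10 genes had between 373.4 and 18348 counts in a library, so counting error on single values was small for the abundant members. Libraries of the same group were almost alike, with a common biological coefficient of variation of 1.84% by edgeR. When genes with at least 20 and under 2000 reads were compared between libraries of a group, chi-square averaged 1.13 to 1.21 per gene, close to the value of 1 that counting noise alone gives, and with 2000 reads or more it averaged 2.6 to 3.45. The design text speaks of 3 mice per group, but the labels do not say that each library is a separate mouse. The p-values here measure only the spread between these libraries, which may be technical. With 1 summed library per group and an assumed biological variation of 0.1, none of the 10 genes passed, and 0.487% (higher) and 1.23% (lower) of all tested genes did. Against a change of at least 1.2-fold, Crat passed as higher and Acsl4 as lower, beside 2.33% and 4.03% of all tested genes.

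**Figure D1:**
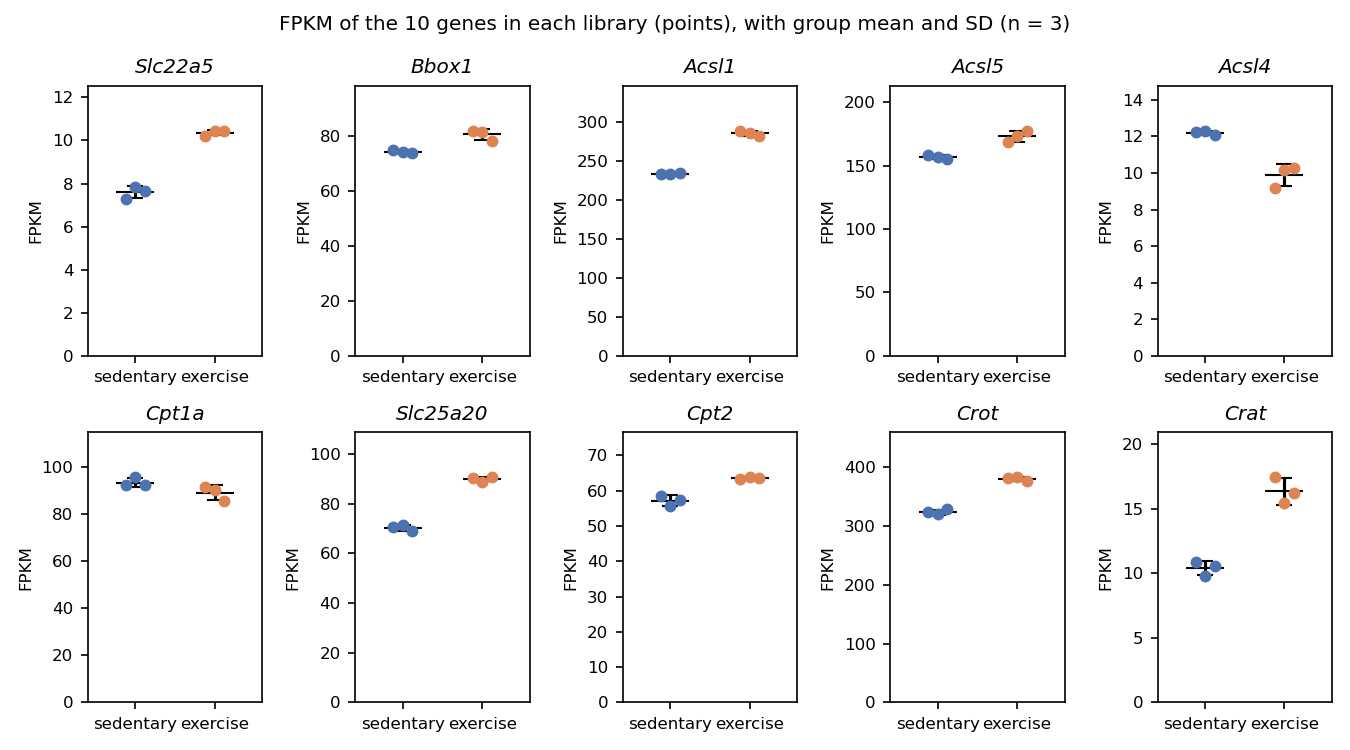
FPKM of the 10 genes (vertical axes from 0, 1 panel per gene), with a point per library and the mean and SD of each group of 3. Exercise points lie above all sedentary points for 8 genes and below them for Acsl4 and Cpt1a, where the gap is narrowest for Cpt1a (92.33 against 91.50).

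The promoter windows of genes that rose and of genes that fell are shown side by side, as both groups hold the same common element. The RefSeq promoter table (GRCm38.p6) had entries for 9 of the 10 genes, with 2 starts for Acsl1, and a window is the 250 bases before a start. Each is printed only as far as the first exon of the gene in GENCODE M21, so no printed base lies in such an exon. Of the windows printed, those of Cpt1a, Bbox1 and Acsl4 lie wholly inside the gene's RefSeq span, that of Slc22a5 lies partly inside it, and that of Slc25a20 lies outside. Of the others, the window of Acsl5 and that of the downstream start of Acsl1 also lie inside. Capitals mark each GC box, GGGCGG or its reverse complement, searched on both strands.
Slc22a5 (rose; chr11:53891704-53891953, minus strand): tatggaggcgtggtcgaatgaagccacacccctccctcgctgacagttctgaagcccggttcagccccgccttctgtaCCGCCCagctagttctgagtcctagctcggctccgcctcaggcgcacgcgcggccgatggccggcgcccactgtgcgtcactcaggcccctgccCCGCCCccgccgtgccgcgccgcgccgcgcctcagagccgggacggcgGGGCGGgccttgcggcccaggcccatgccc
Slc25a20 (rose; chr9:108661886-108662087, plus strand): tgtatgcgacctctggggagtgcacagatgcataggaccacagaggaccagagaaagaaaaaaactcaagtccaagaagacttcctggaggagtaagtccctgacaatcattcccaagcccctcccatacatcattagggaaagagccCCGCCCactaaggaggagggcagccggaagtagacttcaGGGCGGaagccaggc
Cpt1a (fell; chr19:3323051-3323284, plus strand): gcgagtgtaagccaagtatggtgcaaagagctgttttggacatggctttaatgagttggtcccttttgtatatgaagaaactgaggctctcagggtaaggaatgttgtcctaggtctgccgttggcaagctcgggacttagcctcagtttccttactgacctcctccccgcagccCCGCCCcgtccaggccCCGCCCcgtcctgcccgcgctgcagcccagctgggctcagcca
Acsl4 (fell; chrX:142390536-142390785, minus strand): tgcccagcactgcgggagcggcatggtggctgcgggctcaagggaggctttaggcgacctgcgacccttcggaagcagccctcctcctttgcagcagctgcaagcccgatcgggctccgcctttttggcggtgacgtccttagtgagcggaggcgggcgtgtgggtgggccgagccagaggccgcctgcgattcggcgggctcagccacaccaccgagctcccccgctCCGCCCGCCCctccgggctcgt
Bbox1 (did not pass; chr2:110305742-110305975, minus strand): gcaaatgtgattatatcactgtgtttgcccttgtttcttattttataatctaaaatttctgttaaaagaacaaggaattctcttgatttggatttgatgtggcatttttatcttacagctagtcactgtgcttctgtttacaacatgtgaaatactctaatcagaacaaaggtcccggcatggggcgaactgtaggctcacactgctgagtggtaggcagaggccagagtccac

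The GC box was in 7 of the 10 windows, of Cpt1a, Cpt2, Slc25a20, Crot, Slc22a5, Acsl4 and the start of Acsl1 with the higher GC content, and in 32.7% of all 32851 windows of the table. The windows of Bbox1 and Acsl5 and of the other start of Acsl1 had none. These counts and those that follow are over the whole 250 bases. GC content was 39.6% in the window of Bbox1 and 73.6% in that of Slc22a5, with a median of 52.4% over all windows. The nuclear receptor half-site AGGTCA, searched on both strands, was in 1 of the 10 windows, that of Cpt1a, and in 14.0% of all windows. A looser direct repeat, AGGNCA and AGGNCA with 1 base between them, the form that PPAR-alpha binds with its partner, was in 0 of the 10 and in 0.338% of all windows. CCAAT was in 4 of the 10 (33.8% of all), and TATAAA was in 1, that of Bbox1 (12.4% of all). The direct repeat, CCAAT and TATAAA were searched on both strands too. In the printed part of the Bbox1 window the match is the reverse complement, TTTATA. These are matches of letters within a short window and say nothing on whether a factor is bound.

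Slc22a5 (gene ID 20520, chromosome 11, 53864542 to 53891796 in GRCm38.p6) encodes the sodium-dependent transporter that takes up carnitine at the plasma membrane. It was at 7.29, 7.83 and 7.66 FPKM in the sedentary libraries and at 10.21, 10.44 and 10.44 FPKM in the exercise libraries. Every exercise library was above every sedentary library, and the log2 fold change was 0.37 (SE 0.06, edgeR adjusted p = 4.01e-07). Counts of Slc22a5 were not whole numbers, the only such case among the 10. Its neighbour and close homologue Slc22a21 had fractional counts too, and the 2 genes summed to whole numbers in 6 of 6 libraries (within 0.01). Slc22a5 took 94.3% to 97.5% of the pair's reads, and the summed pair had a log2 fold change of 0.37 as well (SE 0.05, edgeR adjusted p = 2.65e-07).

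Bbox1 (gene ID 170442, chromosome 2, 110264056 to 110314813) encodes the hydroxylase of the last step of carnitine synthesis. Its FPKM was 74.83, 73.98 and 73.68 in sedentary and 81.67, 81.43 and 78.16 in exercise libraries. The exercise FPKM values lay higher, but by CPM (counts divided by the library size that TMM estimates) the groups all but met, at 112 to 113 in sedentary and 113 to 116 in exercise libraries. The log2 fold change was 0.03 (SE 0.03, 95% interval −0.03 to 0.09, edgeR adjusted p = 0.465). The call depended on the scaling. With library totals in place of TMM the log2 fold change was 0.11 (edgeR adjusted p = 0.00372), and on log2(TPM + 1) it was 0.15 (limma adjusted p = 0.00218).

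Other genes of carnitine synthesis and transport gave no calls by edgeR with TMM scaling and all 6 libraries. Of 9 on that list 8 were in the table and 5 were tested, and none passed as higher or lower (median log2 fold change 0.14). At an unadjusted p under 0.05, 3 of the 5 passed by edgeR and 0 by DESeq2. With library totals 2 passed the adjusted threshold as higher and 0 as lower (34.5% and 11.7% of all tested genes). By limma 2 passed as higher on log2(FPKM + 1) (27.9% of all) and on log2(FPKM + 0.1) (27.8%). On log2(TPM + 1) 3 did (36.2%), and after quantile normalization 1 did (16.8%). Aldh9a1, an aldehyde dehydrogenase of carnitine synthesis, had means of 98.9 ± 0.577 and 101 ± 1.43 FPKM without and with exercise, and Tmlhe, the first enzyme of the route, of 6.45 ± 0.246 and 7.47 ± 0.110 FPKM (SD, n = 3). Tmlhe did not pass (edgeR adjusted p = 0.157), but did with library totals (0.0184) and on log2(TPM + 1) (limma adjusted p = 0.00507). Slc22a4, a related plasma membrane transporter, had a log2 fold change of −0.34 (SE 0.14, edgeR adjusted p = 0.0564). That gene passed without sedentary replicate 1 (adjusted p = 0.0485) and without exercise replicate 1 (0.0362).

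Acsl1 (gene ID 14081, chromosome 8, 46471037 to 46536051) encodes the main long-chain acyl-CoA synthetase of liver and other oxidative tissues. It was at 233.08, 232.91 and 234.73 FPKM in the sedentary libraries and at 288.40, 285.32 and 281.88 FPKM in the exercise libraries. The distance between the groups was many times the spread within either, with a log2 fold change of 0.21 (SE 0.02, edgeR adjusted p = 3.55e-12). Acsl5 (gene ID 433256, chromosome 19, 55251861 to 55296628), a synthetase of the endoplasmic reticulum and mitochondria, was at 158.34, 156.83 and 155.22 FPKM and then at 168.66, 173.07 and 177.20 FPKM. Its groups were apart as well, but after TMM scaling the log2 fold change was only 0.07 (SE 0.02, edgeR adjusted p = 0.0264). The call for Acsl5 ended without sedentary replicate 2 (0.0594) or 3 (0.101), without exercise replicate 2 (0.0603) or 3 (0.172), and with DESeq2 (0.0720). Zdhhc6 overlaps Acsl5 on the opposite strand and had a log2 fold change of 0.05 (SE 0.04, edgeR adjusted p = 0.349). Whether counting used strand is not stated.

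Acsl4 (gene ID 50790, chromosome X, 142317993 to 142390802) encodes a synthetase that prefers polyunsaturated fatty acids such as arachidonic acid. It was at 12.21, 12.29 and 12.05 FPKM in sedentary and at 9.17, 10.18 and 10.28 FPKM in exercise libraries. All exercise libraries were lower, exercise replicate 1 the most, and the log2 fold change was −0.38 (SE 0.04, edgeR adjusted p = 5.37e-10). Only 6.19% of the tested genes had a lower log2 fold change. Without exercise replicate 1 the log2 fold change of Acsl4 was −0.33 and it still passed. Markers of other liver cells moved in the same libraries. Of 12 macrophage markers 10 fell and none rose (median log2 fold change −0.27), and their summed FPKM was 397 to 409 in sedentary and 339 to 344 in exercise libraries, with no marker at 0. Among these, Clec4f, which marks Kupffer cells, fell by 0.26 on the log2 scale, while Vsig4 (−0.05) and Timd4 (0.01) were not called. With library totals 8 macrophage markers were called lower. Of 10 endothelial markers 4 rose and none fell (summed FPKM 120.1 to 120.4 and 132 to 142), but all 10 were called higher with library totals and on log2(TPM + 1), and 7 by limma on log2(FPKM + 1). Over all tested genes 19.1% were called higher and 19.0% lower. The shares called higher were 34.5% with library totals, 36.2% on log2(TPM + 1) and 27.9% on log2(FPKM + 1). With library totals 11.7% were called lower. The part of these markers in the fall of Acsl4 was not tested.

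The make-up of the long-chain synthetase family differed slightly between the groups. Summed over Acsl1, Acsl3, Acsl4, Acsl5 and Acsl6, the family was at 409 to 411 FPKM in sedentary and 475 to 477 FPKM in exercise libraries. Acsl1 took 56.7% to 57.4% of this sum in sedentary and 59.0% to 60.7% in exercise libraries. The share of Acsl5 was 38.0% to 38.5% and then 35.5% to 37.1%, and that of Acsl4 was 2.95% to 3.01% and then 1.93% to 2.15%. The ranges of these 3 shares did not overlap between groups. Shares of the same sum are tied to each other, and how often shares in other families separate was not computed. FPKM of single genes did not overlap for 36.6% (higher) and 14.3% (lower) of all tested genes. That is an unlike measure, as a share does not depend on the scaling between libraries. Acsl3, which acts at lipid droplets and the endoplasmic reticulum, had under 2% of the sum throughout, and Acsl6 was close to absent.

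**Figure D2:**
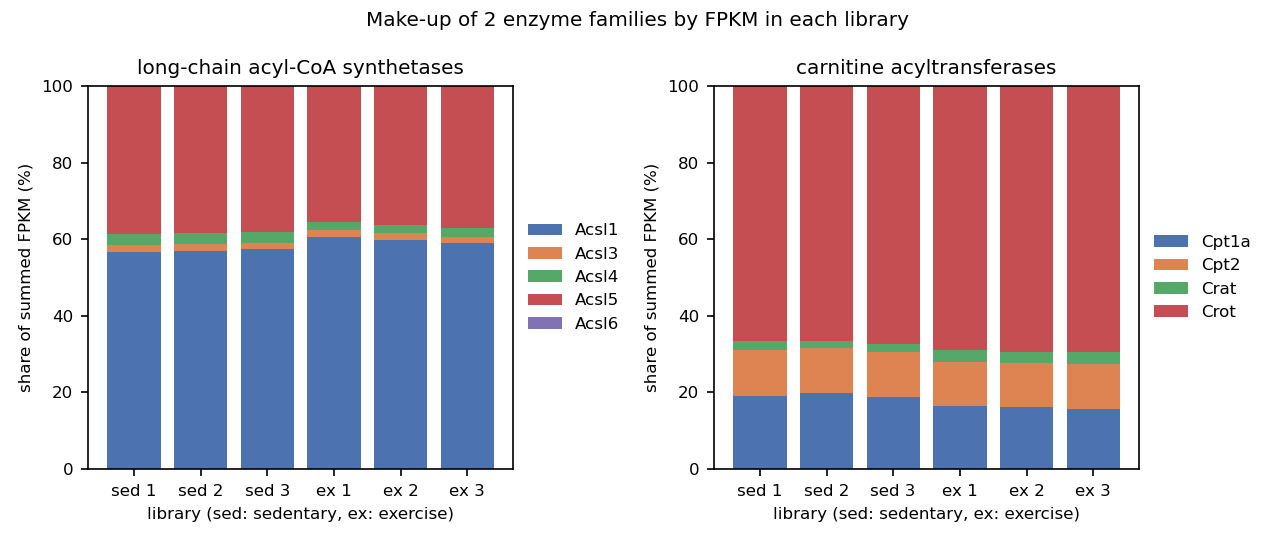
Share of each gene in the summed FPKM of its family (vertical axis, percent) in the 6 libraries, for the long-chain acyl-CoA synthetases and for the carnitine acyltransferases. In exercise libraries the blocks of Acsl1 (59.0% to 60.7%) and Crot (68.9% to 69.5%) are larger, and those of Acsl4, Acsl5 and Cpt1a smaller, than in sedentary libraries.

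Among other acyl-CoA synthetases the calls went both ways, with 5 of 13 tested genes higher and 4 lower around a median log2 fold change of 0.06. The shares of all tested genes were 19.1% higher and 19.0% lower. With library totals the split was 7 higher to 1 lower, against 34.5% and 11.7% of all tested genes. Slc27a2, a very-long-chain synthetase that also takes part in fatty acid uptake, rose from 535 ± 2.62 to 640 ± 18.5 FPKM (SD, n = 3), and Acss2, which activates acetate in the cytosol, rose 1.09-fold. Aacs, which activates acetoacetate for lipid synthesis, fell 2.13-fold, the largest change of the list. Acsm1, a medium-chain synthetase, fell 1.09-fold with overlapping FPKM, a call that was lost with library totals (edgeR adjusted p = 0.121) and on log2(TPM + 1) (limma adjusted p = 0.677).

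Cpt1a (gene ID 12894, chromosome 19, 3322326 to 3385735) encodes the entry enzyme of the mitochondrial route. It was at 92.33, 95.60 and 92.38 FPKM in sedentary libraries and at 91.50, 90.26 and 85.48 FPKM in exercise libraries. The exercise values lay just under the sedentary ones, with exercise replicate 3 the lowest. The log2 fold change was −0.14 (SE 0.02, edgeR adjusted p = 4.35e-06). By TPM, which fixes the sum of each library, the groups overlapped, at 115.37, 120.37 and 115.73 in sedentary and 117.38, 115.72 and 110.07 in exercise libraries. The log2 fold change was −0.03 on log2(TPM + 1) (limma adjusted p = 0.411) and −0.07 on log2(FPKM + 1) (limma adjusted p = 0.122), where the test differs as well as the scale. The call held with edgeR on library totals (adjusted p = 0.0237) and on median of ratios scaling (5.06e-06), and with limma after quantile normalization (0.035). In 23.1% of tested genes the log2 fold change was lower than that of Cpt1a. Cpt1b, the form of muscle, made up 1.09% to 1.22% of the summed CPT1 FPKM in sedentary and 1.49% to 1.64% in exercise libraries. At 1.09 ± 0.0416 and 1.44 ± 0.0643 FPKM (SD, n = 3) it did not pass (log2 fold change 0.32, SE 0.15, edgeR adjusted p = 0.0960). With library totals it did (edgeR adjusted p = 0.0294). By limma it passed after quantile normalization (adjusted p = 0.0251) and on log2(FPKM + 1) (0.02), log2(FPKM + 0.1) (0.0207) and log2(TPM + 1) (0.0113). With DESeq2 it did not (adjusted p = 0.303). The muscle markers, 9 in the table, summed to 0.47 to 1.65 FPKM in sedentary and 1.13 to 1.66 FPKM in exercise libraries.

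Slc25a20 (gene ID 57279, chromosome 9, 108662136 to 108684642) encodes the carnitine-acylcarnitine carrier of the inner membrane. It went from 70.55, 71.39 and 68.79 FPKM in sedentary to 90.28, 88.81 and 90.50 FPKM in exercise libraries. The groups were far apart, with a log2 fold change of 0.28 (SE 0.03, edgeR adjusted p = 2.15e-10), above that of 93.2% of the tested genes. Cpt2 (gene ID 12896, chromosome 4, 107903982 to 107923589), the inner-membrane transferase, was at 58.60, 55.71 and 57.32 FPKM and then at 63.40, 63.76 and 63.65 FPKM. Here the exercise libraries were almost equal and lay above all sedentary ones. The log2 fold change of Cpt2 was 0.08 (SE 0.03, edgeR adjusted p = 0.0398), close to the threshold. It did not pass without sedentary replicate 2 (0.193) or 3 (0.0797), without exercise replicate 1 (0.0564), 2 (0.0863) or 3 (0.0799), with DESeq2 (0.134), after quantile normalization (0.133) or when only genes at a mean FPKM of 5 or more were tested (0.0523).

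The steps of the shuttle had unlike fold changes, and ratios of 2 genes within a library compare them free of any scaling between libraries. The ratio of Cpt1a to Cpt2 counts was 3.09, 3.36 and 3.16 in sedentary and 2.82, 2.77 and 2.62 in exercise libraries, lower in all 3 exercise libraries (1.17-fold). The ratio of Slc25a20 to Cpt2 counts was 0.847, 0.902 and 0.844 in sedentary and 1.0, 0.980 and 1.0 in exercise libraries, higher in all 3. In the other 3 ratios examined the groups did not overlap either. How often ratios of other gene pairs separate in this way was not computed. The pairs were chosen with earlier results of these data known. Acsl1 to Acsl5 went from 2.31 ± 0.0278 to 2.55 ± 0.101, Acsl4 to Acsl1 from 0.0692 ± 0.000869 to 0.0461 ± 0.00329, and Crat to Crot from 0.0346 ± 0.00200 to 0.0463 ± 0.00210 (SD, n = 3). Each of the 5 ratios had p = 0.1 in a two-sided exact permutation test, also after adjustment over the 5, which is the smallest p that 3 libraries against 3 allow. A ratio of counts depends on gene length, so its level does not compare the abundance of the 2 transcripts.

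**Figure D3:**
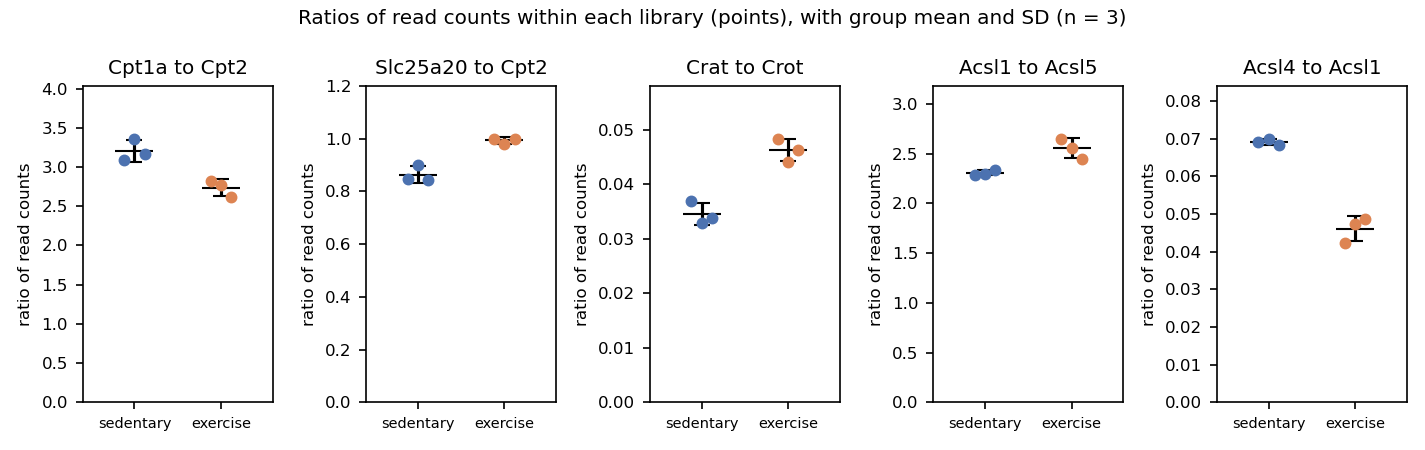
Ratios of the read counts of 2 genes within the same library (vertical axes from 0), with a point per library and the mean and SD of each group of 3. The ratios Cpt1a to Cpt2 and Acsl4 to Acsl1 are lower and the other 3 higher in every exercise library.

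Genes that make or remove malonyl-CoA, the inhibitor of Cpt1a, gave no calls, with 0 of 3 higher and 0 lower (median log2 fold change −0.01). At an unadjusted p under 0.05, edgeR and DESeq2 also gave 0 of 3. Acaca, a carboxylase that makes malonyl-CoA, was at 10.0 ± 0.182 and 10.4 ± 0.414 FPKM. Acacb, the carboxylase at the mitochondrial surface, was at 7.49 ± 0.459 and 8.13 ± 0.164 FPKM, and Mlycd, which removes malonyl-CoA, at 44.7 ± 0.860 and 47.1 ± 1.66 FPKM (SD, n = 3). Mlycd passed on log2(TPM + 1) (limma adjusted p = 0.0277) and Acacb with library totals (edgeR adjusted p = 0.0172), both as higher.

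Crot (gene ID 74114, chromosome 5, 8966033 to 8997146) encodes the carnitine octanoyltransferase of peroxisomes, which prepares chain-shortened fatty acids for export to mitochondria. It was the most abundant of the 10 per length of transcript, at 323.48, 320.02 and 328.59 FPKM in sedentary and 382.57, 382.89 and 377.06 FPKM in exercise libraries. The groups were well apart, with a log2 fold change of 0.16 (SE 0.02, edgeR adjusted p = 9.38e-09). Crat (gene ID 12908, chromosome 2, 30400476 to 30416017) encodes carnitine acetyltransferase, which interconverts acetyl-CoA and acetylcarnitine. It was at 10.90, 9.82 and 10.58 FPKM and then at 17.43, 15.42 and 16.20 FPKM. Crat had the largest change of the 10, with every exercise library well above the sedentary ones and a log2 fold change of 0.58 (SE 0.05, edgeR adjusted p = 2.23e-13), above that of 98.9% of the tested genes. Dolpp1, which overlaps Crat on the opposite strand, had 251, 237 and 238 counts in sedentary and 272, 230 and 264 in exercise libraries (log2 fold change 0.02, SE 0.08, edgeR adjusted p = 0.864). The length implied by count and FPKM ranged more widely for Crat (2641 to 2747 bases in sedentary and 2671 to 2758 in exercise libraries) than for the others, without separating the groups. Of the carnitine acyltransferases together, Cpt1a took 18.9% to 19.9% of the summed FPKM in sedentary and 15.8% to 16.5% in exercise libraries, and Crat 2.04% to 2.25% and then 2.79% to 3.14%.

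The count of members that passed was read against the background under each scaling. With library totals 8 of the 10 genes were called higher and 2 lower, against 34.5% and 11.7% of all tested genes. Median of ratios scaling gave 7 and 2 (19.2% and 18.8%), and quantile normalization with limma gave 6 and 2 (16.8% and 14.3%), the call for Cpt2 being lost. DESeq2 gave 5 and 2 (12.4% and 12.1%), without Cpt2 and Acsl5. By limma, 8 were called higher and 1 lower, Acsl4, on log2(FPKM + 1) (27.9% and 10.7%), on log2(FPKM + 0.1) (27.8% and 10.7%) and on log2(TPM + 1) (36.2% and 8.91%), so that Bbox1 joined the higher genes and Cpt1a left the lower ones. When only genes at a mean FPKM of 5 or more were tested, the 10 gave 6 and 2 (22.2% and 21.6%). TPM of the groups did not overlap for 8 genes that were higher and 1 that was lower in exercise (43.7% and 11.7% of tested genes), and TMM-scaled counts for 8 and 2 (23.3% and 23.7%).

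**Figure D4:**
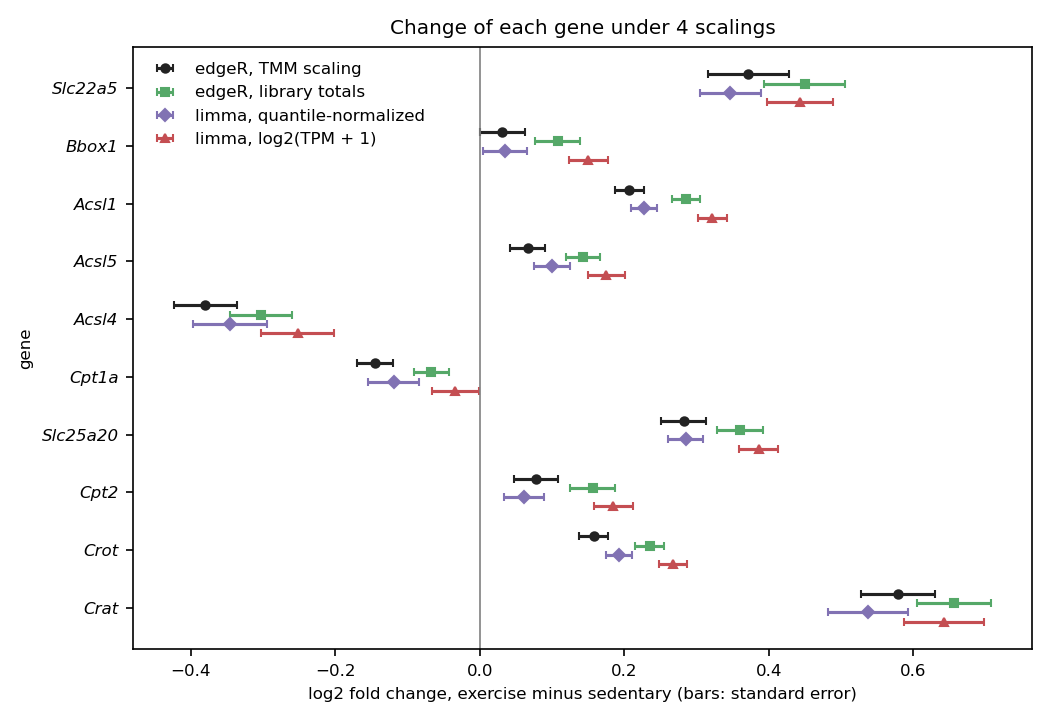
Log2 fold change of each gene, exercise minus sedentary (horizontal axis, bars are standard errors), by edgeR with TMM scaling, edgeR with library totals, limma on quantile-normalized values and limma on log2(TPM + 1). Crat lies farthest to the right and only Acsl4 and Cpt1a lie left of 0 under all 4, and library totals and TPM place every gene to the right of its TMM value.

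By level, the order in sedentary libraries was Crot (324 FPKM), Acsl1 (234), Acsl5 (157), Cpt1a (93.4), Bbox1 (74.2), Slc25a20 (70.2), Cpt2 (57.2), Acsl4 (12.2), Crat (10.4) and Slc22a5 (7.59). The ranges of neighbours in that order did not overlap. In exercise libraries Slc25a20 (89.9 FPKM) stood beside Cpt1a (89.1), and their ranges of 88.81 to 90.50 and 85.48 to 91.50 overlapped. Acsl4 (9.88) stood last, and its range reached that of Slc22a5 (10.4). Crat (16.3) was above both.

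Downstream of the shuttle, mitochondrial beta-oxidation genes mostly rose, with 14 of 19 tested genes higher, 2 lower and a median log2 fold change of 0.14. Over all tested genes 19.1% were called higher and 19.0% lower. With library totals the split was 15 to 0, where 34.5% and 11.7% of all tested genes were called. The acyl-CoA dehydrogenase genes Acadm and Acadl rose 1.19-fold and 1.18-fold, Eci2, an enoyl-CoA isomerase, rose 1.27-fold, and the thiolase gene Acaa2 rose from 690.5 ± 8.15 to 828 ± 27.7 FPKM (SD, n = 3). Genes of peroxisomal oxidation, the pathway that feeds Crot, numbered 16, of which 6 rose and 2 fell around a median of 0.04. With library totals the split was 11 to 2. Hacl1, a lyase of alpha-oxidation, rose 1.21-fold and Ech1, an isomerase, rose 1.23-fold. Ehhadh, which performs the middle steps of peroxisomal oxidation, went from 94.9 ± 0.128 to 152 ± 2.90 FPKM, and the thiolase gene Acaa1b from 463 ± 0.985 to 768 ± 7.81 FPKM (SD, n = 3). Acaa1b and its close copy Acaa1a had fractional counts, so reads may have been split between them and their values are uncertain.

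On the side of acyl-CoA use in glycerolipids and acyl-CoA binding, 3 of 12 tested genes rose and 2 fell around a median of 0.05. These counts were near the background of 19.1% higher and 19.0% lower over all tested genes. Library totals gave 6 and 0, against 34.5% and 11.7% of all tested genes. Gpat4 and Agpat3, acyltransferases of glycerolipid synthesis, rose 1.15-fold and 1.06-fold, and Acbd5, an acyl-CoA binding protein of peroxisomes, rose 1.07-fold. The call for Agpat3 was lost without exercise replicate 2 (edgeR adjusted p = 0.0654). Gpam, a mitochondrial glycerol-phosphate acyltransferase that competes with Cpt1a for acyl-CoA, had a log2 fold change of −0.08 (SE 0.03, edgeR adjusted p = 0.0174), or 0.03 on log2(TPM + 1). The call for Gpam was lost without sedentary replicate 3 (0.0785), exercise replicate 1 (0.107) or exercise replicate 3 (0.0517).

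Of 13 genes of PPAR-alpha, its partner and coregulators, 2 rose and 6 fell around a median of 0.02. Over all tested genes 19.1% were called higher and 19.0% lower, so 2 of 13 higher was near the background. Library totals gave 6 and 4, against 34.5% and 11.7% of all tested genes. Ppara itself had a log2 fold change of 0.02 (SE 0.03, edgeR adjusted p = 0.587), at 36.3 ± 0.309 and 39.4 ± 0.746 FPKM (SD, n = 3). Hnf4a, a hepatocyte transcription factor, rose 1.21-fold. Rxra, the receptor partner of PPAR-alpha, fell 1.1-fold, and Lpin1, a phosphatidate phosphatase and coactivator, fell 1.34-fold. The call for Rxra was lost on log2(TPM + 1) (limma adjusted p = 0.259).

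**Figure D5:**
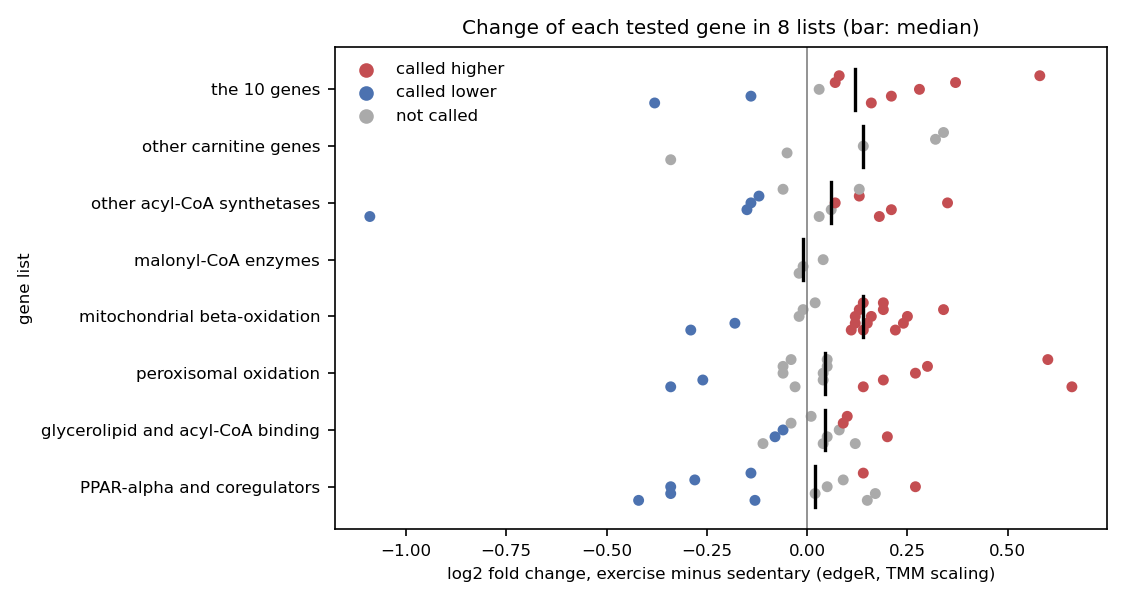
Log2 fold change of every tested gene (edgeR, TMM scaling) in the 8 pathway lists, exercise minus sedentary, coloured by call, with the median of each list as a bar. The points of mitochondrial beta-oxidation lie mostly above 0 (14 higher, 2 lower), as do those of the 10 genes (7 higher, 2 lower), while the malonyl-CoA enzymes lie near 0.

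Markers of the other cells a liver sample can hold were measured in the same libraries as the 10 genes, and their part in the results was not tested. Besides the macrophage and endothelial markers given with Acsl4, 4 of 8 tested stellate cell markers rose and 1 fell (summed FPKM 84.6 to 87.5 in sedentary and 106 to 107 in exercise libraries). Summed FPKM was lower in exercise libraries for cholangiocyte markers (63.7 to 66.3, then 33.4 to 35.2), neutrophil markers (20.4 to 27.7, then 9.91 to 12.8), erythroid markers (381 to 393, then 335 to 352) and pancreatic acinar markers (19.1 to 20.5, then 8.46 to 8.97). Of these lists, 1 of 2, 1 of 3, 4 of 5 and 2 of 2 tested genes fell and none rose. Among all tested genes 19.1% were called higher and 19.0% lower. The erythroid count was 1 of 5 with library totals, with DESeq2 and by limma on FPKM or TPM, and 2 of 5 without sedentary replicate 2, exercise replicate 2 or exercise replicate 3. Most of the difference in the cholangiocyte sum was in Spp1 (mean FPKM 60.7 and 30.5), and most of that in the neutrophil sum in Prtn3 (10.2 and 1.14). Most of the pancreatic sum was Cela1 (10.9 and 7.89), with Cela2a (1.28 and 0.573) and Ctrl (0.633 and 0.287) also left in exercise libraries. Amy2a5, Cela3b, Cpa1, Cpb1, Ctrb1, Pnlip, Prss2, Try4, Try5 and Clps had an exercise mean of 0. Their sedentary means ran from 0.0767 (Clps) to 2.45 FPKM (Amy2a5). The sums overlapped between groups for lymphocyte markers (3.85 to 4.39 and 3.56 to 3.91) and adipocyte markers (12.8 to 14.6 and 12.6 to 16.8), each with 1 tested gene and no call. Of the adipocyte markers Adipoq and Plin1 were at 0 in at least 1 library.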

How the data were processed

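RNA-seq counts, FPKM and TPM of 6 mouse liver libraries were used. Per the labels, RNA was extracted with TRIzol, libraries were read on a DNBseq instrument, and poor reads were removed. The submitters' processing notes name the build GRCm38.p6 and, as tools, cutadapt, MultiQC and featureCounts. The sources used here give no roles, versions, annotation or strand setting. The deposited read counts are estimated counts (1165 genes had a count that is not whole). The FPKM values are the authors' and sum to 776650 to 800330 per library. The TPM values are deposited as well and sum to the same total in each library. The 6 columns of authors' means were not used.

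Counts were rounded and fitted across all genes with edgeR 4.0.16 in R 4.3.3 (TMM scaling, quasi-likelihood F test, two-sided, no covariates). A gene entered the fit at a mean FPKM of 1 or more. The Benjamini-Hochberg adjusted p had to be under 0.05 for a call. TMM factors were 0.972 to 0.977 in sedentary and 1.03 in exercise libraries, so fold changes here are lower than ratios of FPKM means. Standard errors are the log2 fold change over the square root of F, and 95% intervals are 1.96 standard errors. Ratios of counts were compared by exact permutation (scipy 1.17.1). Alternatives used limma 3.58.1 on log2 values of the deposited FPKM or TPM, and DESeq2 1.42.0. On simulated data with 10266 genes, 50 genes were changed at each fold. The test for exercise against sedentary recovered 24% of genes changed 1.1-fold, 68% at 1.25-fold, 90% at 1.5-fold and 100% at 2-fold. Of its calls, 5.37% were unchanged genes. Far fewer genes were changed than the 38.1% called in the data, and the spread was taken from these libraries. These rates therefore need not hold for the real comparison.

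The 10 genes, the lists and the tests were chosen with earlier results of these data known. All 10 are named, and of each of the 7 other pathway lists up to 4 tested genes with the smallest p. A gene that this rule selects is not reported here. Genes of cell type markers, Acsl3, Acsl6, Ppara, Acaa1a, Slc22a21 and overlapping genes are named outside this rule. Gene coordinates and promoters are from RefSeq tables of GRCm38.p6 (10 of 10 genes found by gene ID), and strand and overlaps from GENCODE M21. With 2 groups that stand apart, no correlation between genes over the libraries is given.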

Additional observations from a re-analysis of the deposited data

How the results depend on the processing

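Over 18 alternatives no gene of the 10 changed sign. The 7 genes called higher became 5 to 7 with 1 library left out, 5 among the 8 genes without a listed overlapping gene (chosen after seeing the data), 1 against a 1.2-fold change and 0 with 1 summed library per group. The 2 called lower stayed 2 with any 1 library left out, and were 1 by limma on log2(FPKM + 1), log2(FPKM + 0.1) and log2(TPM + 1), 1 against a 1.2-fold change and 0 with summed libraries. Calls over all tested genes, 3913 here, were 2512 by DESeq2, 653 against a 1.2-fold change, 176 with summed libraries and 3402 to 3491 with 1 library left out. Higher and lower calls were 1961 and 1952, but 3537 and 1203 with library totals and 3716 and 915 on log2(TPM + 1). In these settings the median log2 fold change of all genes was 0.08 and 0.10. With 1 library left out, 1712 to 1761 of the 10266 tested genes were called higher and 1688 to 1753 lower. Against a 1.2-fold change 239 were higher and 414 lower, and with summed libraries 50 and 126.

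Some listed genes near 0 changed sign. Aldh9a1 was 0.027 with library totals, 0.025 by limma on log2(FPKM + 1) and log2(FPKM + 0.1) and 0.059 on log2(TPM + 1). Acaca was 0.055, 0.046, 0.050 and 0.079 in the same order, and −0.039 to 0.010 with 1 library left out (above 0 without exercise replicate 3). Mlycd was 0.071, 0.075, 0.076 and 0.109, with 0.026 after quantile normalization, 0.002 without a filter, and −0.021 to 0.024 with 1 library left out (0.007 without sedentary replicate 1 and 0.024 without exercise replicate 3). Gpam was 0.032 on log2(TPM + 1). The cause was not tested, nor for the other changed calls. With 1 library left out, log2 differences were −0.249 to −0.189 for the count ratio of Cpt1a to Cpt2, and the smallest possible p is then 0.2. The sign of the 5 count ratios could not change there, as the groups did not overlap. Scaling between libraries does not enter a ratio within a library, so neither check tests these ratios.

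Replicate numbers gave no pairing, with correlations of deviations of −0.030, −0.001 and 0.023 for same-numbered libraries. With the replicate block 3846 genes passed, and 7 of the 10 rose and 2 fell, beside 18.8% and 18.7% of all tested genes.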
